A study of Mus musculus with 960 samples.

Results

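Interleukins are secreted proteins that carry signals between leukocytes and from leukocytes to the tissue around them, and each acts through receptor chains on the surface of the cell that receives it. The account below covers the 85 protein-coding mouse genes whose symbol is Il followed by a digit, out of 22350 protein-coding genes on chromosomes 1 to 19 and X. By the role of their product, 39 were ligands, 39 were receptor chains, 6 were antagonists or decoys that hold a ligand back from its receptor, and 1 (Il4i1) was an enzyme that carries the name only. All 85 were found in the annotation, and all are accounted for below.

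The measurement was ATAC-seq, in which the Tn5 transposase tags DNA that is open in chromatin, on single cells of a breast tumour of MMTV-PyMT mice about 3 months old. In these mice the MMTV promoter drives the polyoma middle T oncogene in mammary epithelium, and every cell carries it, so there was no tumour-free or transgene-free sample. The labels list 768 wells on 8 plates stained against EpCam, which marks epithelial cells, and HIF1a, a factor stabilised by low oxygen. A further 192 wells on 2 plates were stained against EpCAM and CD45, which marks cells of the blood lineage. The deposited list of 50000 open windows of 500 bp, from 38400 called peaks, was made on pooled cells, names no well or animal, and is therefore 1 sample without replicates. A window says that a stretch of DNA was open often enough in the pool to be called. It gives neither a level, nor the cells that were open, nor whether the gene was transcribed.

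Markers of epithelial cells were open at their start sites and the chosen markers of blood-derived cells were not. All 10 of 10 epithelial markers (Epcam, Cdh1, Krt8 and others) had a window centred no farther than 1 kb from a start site, against 0 of 11 markers of blood-derived cells (exact interval up to 28.5%), among them Ptprc (the gene of CD45), Cd3e, Cd79a, Itgam and Lyz2. Csf1r was the only blood marker with a window in the gene, and other genes known from leukocytes did have open start sites, such as Cxcr4 with 3 windows. Of 5 fibroblast markers only Pdgfra had a window at a start site, and of 4 endothelial markers none did. Inside the gene, the endothelial markers Pecam1 and Kdr held 5 and 1 windows. The share of all protein-coding genes with a window at a start site was 52.4%. By the methods the cells of 1 condition were pooled, but the HIF1a experiment of the study counts more cells than there are wells with that label, so wells labelled for CD45 may be part of the pool. In a pool a gene open in few cells cannot be told apart from one that is closed in all. The depth behind each window is unknown.

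Interleukin ligands had few open start sites, and receptor chains had them at about the share of all genes. A window centred that close to a start site, called an open start site below, was found for 8 of 39 ligands (20.5%, exact 95% interval 9.3 to 36.5) and for 19 of 39 receptor chains (48.7%, 32.4 to 65.2), against a background of 52.4% of all 22350 protein-coding genes. Intervals here and below cover counting error only, and no test was run between roles. With windows inside the gene counted as well, the numbers were 12 ligands (30.8%, 17.0 to 47.6) and 24 receptor chains (61.5%, 44.6 to 76.6), against 58.3% of all genes. The interval of the ligands lay below the background in both counts, and that of the receptor chains contained it. Over all 85 members, 29 (34.1%) had an open start site, 38 (44.7%) had a window in the gene or at a start site, and 47 had none.

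Start sites in CpG islands, stretches rich in the dinucleotide CG, tend to be open in most tissues, and few interleukin genes have them. Only 8 of 85 members had a CpG island-like start site, here a 1001 bp stretch with at least 55% G and C and an observed to expected CG ratio of at least 0.65, against 8997 of 22350 genes. All 8 of these members had a window at the start site, against 85.2% of genes of this class. Among start sites of the other class, 7 of 38 ligands and 13 of 33 receptor chains had one, against 30.3% of genes. The mix of start sites alone would thus give 31.7% for the ligands, 38.7% for the receptor chains and 35.4% for all members. The difference from that share was -11.2 points for the ligands and 10.0 points for the receptor chains, whereas the receptor chains differed by -3.7 points from the share of all genes. The exact interval of each role contained its share from the start site classes. All 11 markers of blood-derived cells and 9 of the 10 epithelial markers had start sites of the other class, open for 30.3% of genes.

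**Figure D1:**
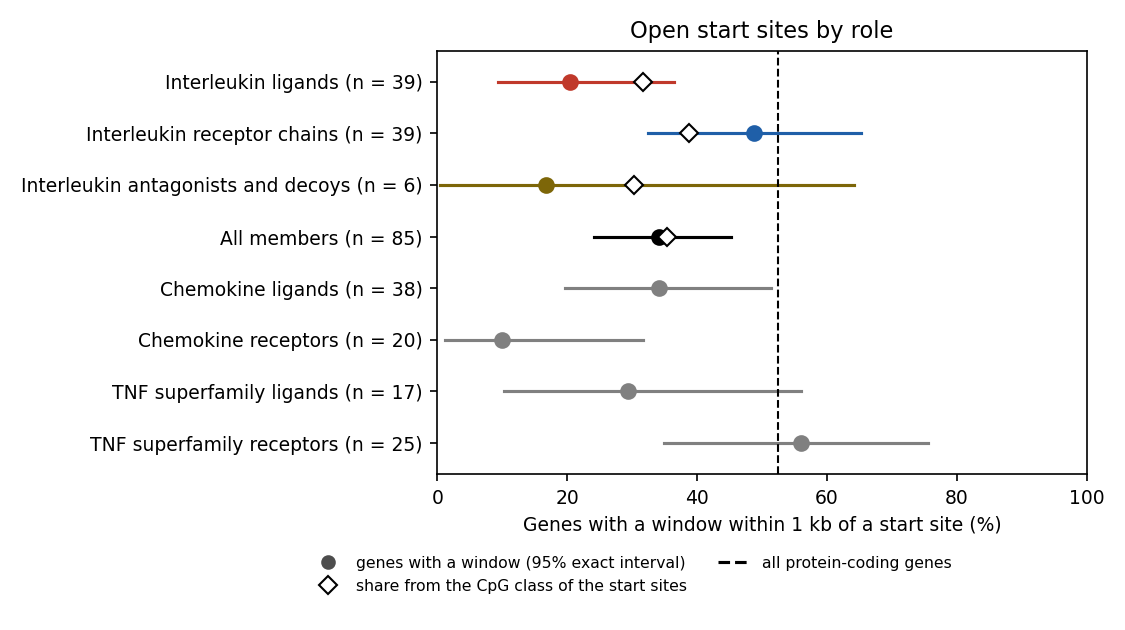
Share of genes with an open start site, a window centred no farther than 1 kb off (x axis, percent) for interleukin ligands, receptor chains, antagonists and decoys, all members, and the chemokine and TNF superfamily genes; points are shares, lines exact 95% intervals, open diamonds the share expected from the CpG class of the start sites, and the dashed line all protein-coding genes (52.4%). The ligands, at 20.5%, sit left of the dashed line with their whole interval, and the receptor chains, at 48.7%, straddle it.

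Related families of immune signals were counted in the same way. Chemokines are small proteins that attract leukocytes: 13 of 38 of their ligand genes (34.2%, 19.6 to 51.4) and 2 of 20 receptor genes (10.0%, 1.2 to 31.7) had an open start site, against 52.4% of all genes. In the TNF superfamily the counts were 5 of 17 ligands (29.4%, 10.3 to 56.0) and 14 of 25 receptors (56.0%, 34.9 to 75.6). Overlapping annotation entries with the same symbol were counted apart. Both entries of the chemokine ligand Ccl25 were open, and of those of the TNF receptor Tnfrsf22 only the longer was. Both families lie mostly outside CpG islands, as the interleukins do. Among start sites of the other class, 10 of 34 chemokine ligands, 2 of 19 chemokine receptors, 5 of 17 TNF ligands and 12 of 23 TNF receptors were open, against 30.3% of all genes of that class. These differences were not tested.

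The distance to the nearest open window gave the same order without a limit of 1 kb. The centre of the nearest window lay a median of 12700 bp from the closest start site of a ligand, 3459 bp from that of a receptor chain and 42637 bp from that of an antagonist or decoy, against 381 bp over all protein-coding genes. Within 10 kb there was a window for 19 of 39 ligands (48.7%) and 22 of 39 receptor chains (56.4%), against 62.6% of all genes. Receptor chains were split: the 19 with an open start site had it within 398 bp, and the next one, Il12rb1, was 3459 bp away. Among the ligands the first beyond the limit were Il34 at 1077 bp, Il24 at 1514 bp and Il25 at 1980 bp.

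**Figure D2:**
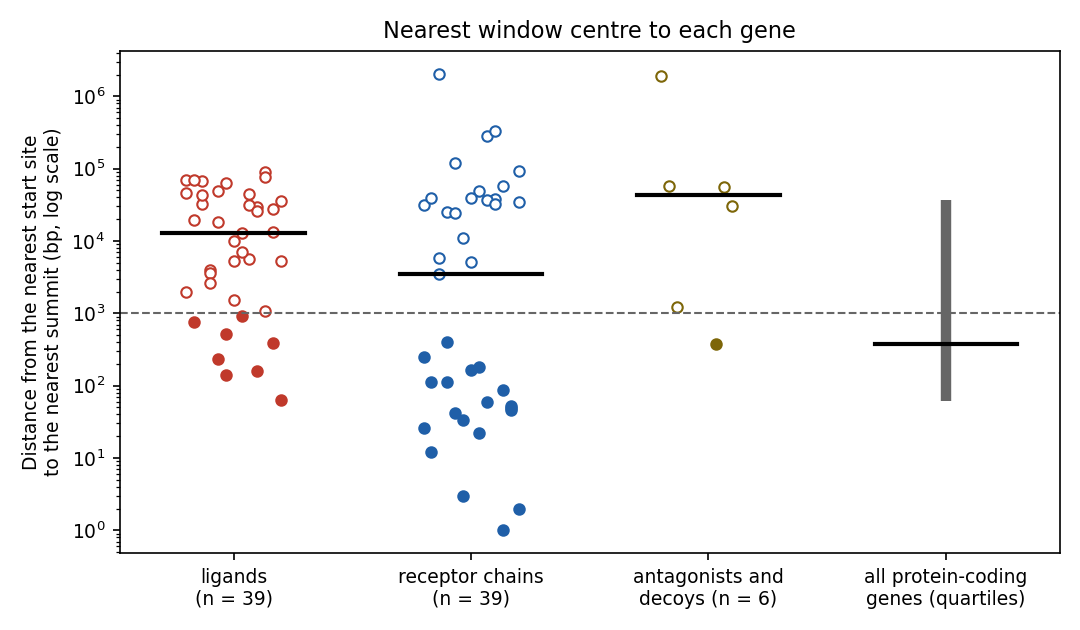
Distance from the nearest start site to the centre of the nearest window (y axis, bp, log scale) for each ligand, receptor chain, and antagonist or decoy, with medians as black bars and the quartiles of all protein-coding genes as a grey bar; filled points have a window within 1 kb (dashed line). Receptor chains form a group below 398 bp and another above 3459 bp.

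The members held 102 distinct windows from 74 called peaks. Of these, 50 were centred within 1 kb of a start site of a member and 52 lay farther off, mostly in introns. Genes with 3 or more windows numbered 2 of 39 ligands and 9 of 39 receptor chains, against 20.6% of all genes. Gene length differs between the roles, with a median of 6.6 kb for ligands and 30.1 kb for receptor chains, against 15.4 kb over all genes, and its part in these counts was not tested. At other genes' start sites lay 4 of the 50 windows and 11 of the 52.

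**Figure D3:**
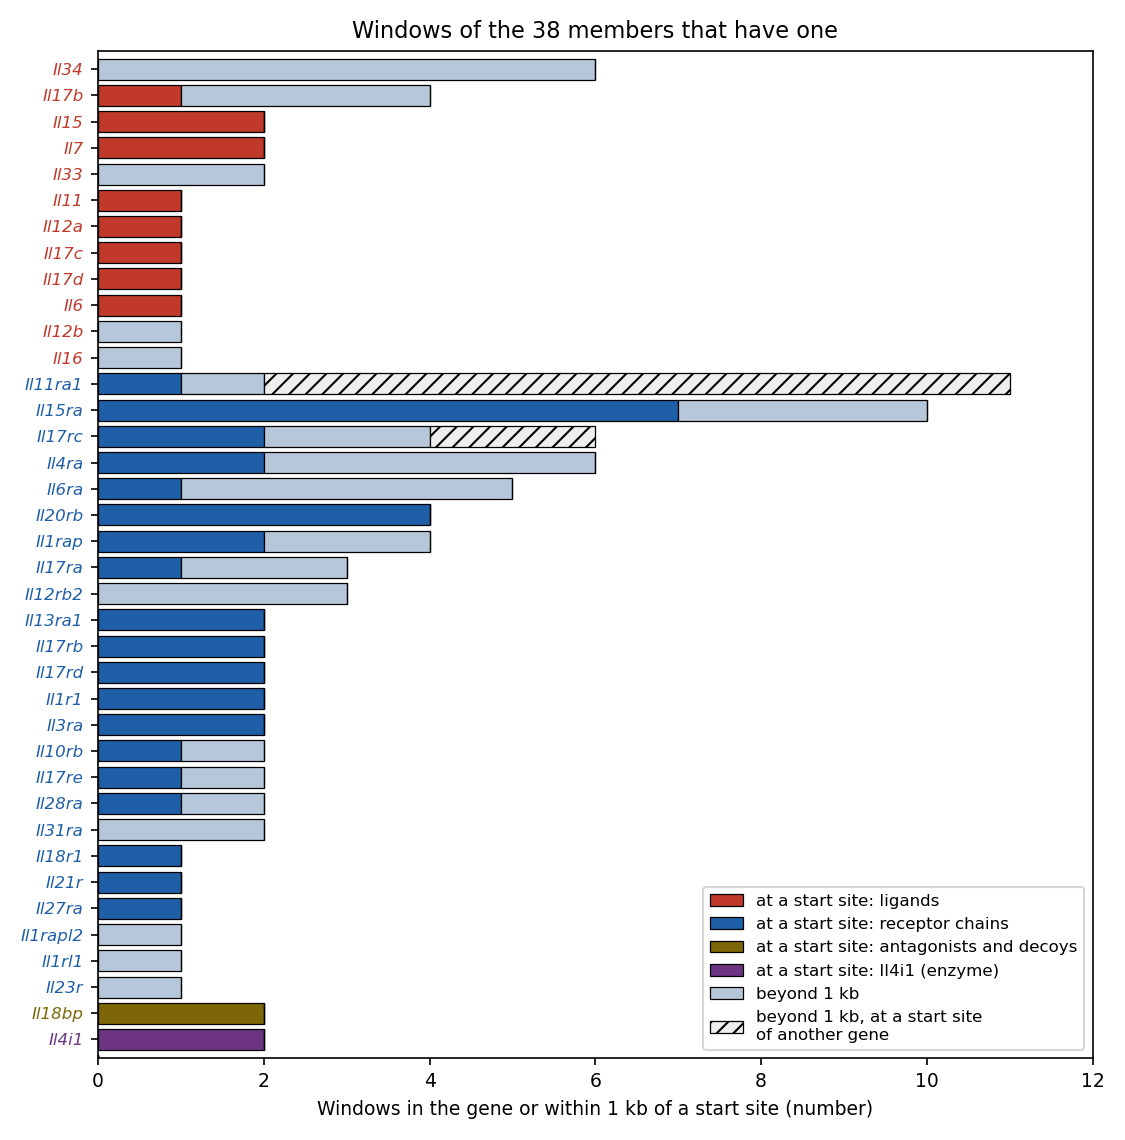
Number of windows (x axis) in or at each of the 38 members that had any, grouped as ligands, receptor chains, Il18bp and Il4i1; solid colours are windows within 1 kb of a start site of the member, pale blue those beyond, and hatched those beyond 1 kb that lie at a start site of another gene. Il11ra1 has 11 windows, of which 9 are hatched, and Il15ra has 10, of which 7 are at its start sites.

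Among the ligands, Il34 had the most windows and none of them at a start site. It encodes a ligand of the macrophage receptor CSF1R (chromosome 8, 113265729 to 113329824, minus strand). Its 6 windows were all intronic, and the closest was centred 1077 bp downstream of a start site. Il17b, on chromosome 18, had 4 windows: 1 centred 233 bp upstream of its start site, 1 in a coding exon and 2 in introns. Il33, an alarm signal kept in the nucleus, had 2 intronic windows and none at its 4 start sites.

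The survival factors of lymphocytes that use the common gamma chain, Il7 and Il15, each had 2 windows at the start. For Il7 (chromosome 3, 7572036 to 7613722) they were centred 64 and 403 bp upstream of a start site, and for Il15 (chromosome 8, 84855536 to 84927121) 162 and 595 bp downstream of it. The 5 other ligands counted with them, Il2, Il4, Il9, Il13 and Il21, had no window. The nearest was 75575 bp from the start of Il2, the T cell growth factor, and 49818 bp from that of Il4, which drives type 2 responses.

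In the IL-17 family, Il17c had a window 386 bp upstream of its start and Il17d one 520 bp downstream of a CpG island-like start. Il17a and Il17f, which gave the family its name, had none. The nearest window to Il17a was 89445 bp away, the longest distance among the ligands. Il25, also of this family, had none within 1 kb, the nearest being 1980 bp upstream.

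Of the ligands related to Il6 and Il12, 4 of 7 had a window (57.1%, exact interval 18.4 to 90.1), close to the 58.3% of all genes. Il6 is an inflammatory cytokine and a standard target of NF-κB. Its window was centred 140 bp downstream of the start site (chromosome 5, 30339701 to 30346508) and holds an NF-κB match, GGGA and TTCC set 2 bases apart, centred 86 bp upstream of the start. This was the only ligand window with such a match, and its stretch at chr5:30339591-30339649 (mm9, plus strand) is shown 5′ to 3′ with the match in capitals.
Il6: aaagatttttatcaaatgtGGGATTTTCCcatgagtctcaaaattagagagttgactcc
Il12a, the p35 subunit of IL-12, had a window 770 bp upstream, and Il12b, the p40 subunit it pairs with, had only an intronic one 5659 bp from its start. Il11, a ligand that signals through gp130, had a window 928 bp downstream of an internal start site and 5645 bp from its outermost one. That window was 71.2% G and C.

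The remaining 27 ligands had no window in the gene or at a start site. In the IL-1 family these were Il1a, Il1b, Il1f6, Il1f8, Il1f9, Il1f10 and Il18, that is, all ligands but Il33. Thus 1 of 8 had a window (12.5%, exact interval 0.3 to 52.7), against 58.3% of all genes. None of the 7 ligands of the IL-10 and lambda group had one (Il10, Il19, Il20, Il22, Il24, Il28a, Il28b), nor did Il3 and Il5 of the common beta chain group or Il23a, Il27 and Il31. The exact interval for 0 of 7 reached 41.0%, against 58.3% of all genes. At start sites, 0 of 8 IL-1 ligands and 0 of 7 of the IL-10 and lambda group had a window. Those intervals, up to 36.9% and 41.0%, contained the 30.3% from the CpG class of their start sites. For these 27 genes the nearest window lay 1514 to 89445 bp from a start site, with a median of 29052 bp. For Il1b it was 70079 bp and for Il10, which restrains inflammation, 70025 bp. Of the 27, 6 had no window within 50 kb of the gene. Il16, which is unrelated to the others, had 1 intronic window.

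Among the receptor chains, Il15ra had the most windows that belonged to the gene. It encodes the chain that holds IL-15 and presents it to neighbouring cells (chromosome 2, 11626914 to 11655613). Its 10 windows came from 4 called peaks that kept 4, 1, 2 and 3 windows. The first group began at the outermost start, with centres from 1 bp upstream of it to 1254 bp downstream, and the last group surrounded an internal start site 17 to 18 kb farther on. Il2ra, the neighbour whose product is the related chain for IL-2 on activated T cells, had none, and the nearest window to its start was 39508 bp away. A window of the first group holds an AP-1 match (TGANTCA) centred 27 bp upstream of a start site, shown at chr2:11627279-11627345 (mm9, plus strand), capitals marking the match.
Il15ra: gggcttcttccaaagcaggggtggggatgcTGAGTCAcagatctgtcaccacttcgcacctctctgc

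Il11ra1, the receptor of IL-11, headed the count with 11 windows, but only 1 was its own start site's, centred 12 bp upstream of an internal start. Its gene model spans 69.3 kb (chromosome 4, 41647021 to 41716347) and runs over the start sites of other genes, among them Dctn3 and Galt. At start sites of other genes lay 9 of the other 10 windows. The near-identical Il11ra2 had none. Reads that fit both copies equally would have been dropped by the filter for unique mapping, and the part of this was not tested.

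All 5 IL-17 receptor genes had an open start site (lower exact bound 47.8%), against 52.4% of all genes and 52.2% from the CpG class of their start sites, shares above that bound. Il17ra is the chain shared by the family, Il17rc pairs with it for IL-17A and IL-17F, Il17rb for IL-25, and Il17re for IL-17C, while Il17rd also dampens FGF signals. Il17ra (chromosome 6, 120413215 to 120433745) had 3 windows, the first 42 bp upstream of a CpG island-like start. Il17rd had 2, at 2 bp upstream and 496 bp downstream, also at a CpG island-like start, and Il17rb had 2 that it shares with the start of Chdh. Il17re and Il17rc lie side by side on chromosome 6 and had 2 and 6 windows, of which 2 of Il17rc lay at the start of the next gene, Creld1.

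The other 2 of the 3 NF-κB matches in all 102 windows were at Il17rc and Il17rd, and for this reason their stretches are shown (mm9, plus strand), with NF-κB matches and a STAT match (TTCNNNGAA) in capitals. The Il17rc stretch, chr6:113421925-113422196, has its STAT match centred 318 bp and its NF-κB match 115 bp upstream of an internal start site. The Il17rd stretch, chr14:27852722-27852791, has its NF-κB match 570 bp downstream of the start.
Il17rc: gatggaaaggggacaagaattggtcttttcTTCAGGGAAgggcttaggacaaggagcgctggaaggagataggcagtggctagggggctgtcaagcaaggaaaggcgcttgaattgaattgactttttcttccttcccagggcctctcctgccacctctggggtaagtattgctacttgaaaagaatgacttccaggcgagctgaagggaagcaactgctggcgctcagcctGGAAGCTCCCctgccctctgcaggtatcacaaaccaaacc
Il17rd: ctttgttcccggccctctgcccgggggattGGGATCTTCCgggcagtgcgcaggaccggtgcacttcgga

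Receptor chains for the type 2 cytokines IL-4 and IL-13 had open start sites. Il4ra, the chain both cytokines share (chromosome 7, 132695785 to 132722986), had 6 windows from 6 called peaks: 88 and 858 bp upstream of its outermost start, 1 in an intron, 1 in a coding exon and 2 in the 3′ untranslated part. Its partner Il13ra1 had 2 windows, 112 and 441 bp upstream of its start on the X chromosome. Il21r, next to Il4ra, had 1 at its start. Il2rg, the common gamma chain itself, had no window at its 4 start sites, the nearest being 5879 bp away. Il2rb, Il7r and Il9r had none either, at 37207, 93898 and 5058 bp. Of the 9 receptor chains counted in the common gamma chain group, 4 had an open start site (44.4%, exact interval 13.7 to 78.8). The share over all genes was 52.4%.

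Of the chains of the IL-6 receptor, Il6ra had an open start site and Il6st had one only by the RefSeq annotation. Il6ra, the chain that binds IL-6 (chromosome 3, 89673246 to 89717084, minus strand), had 5 windows: 1 centred 46 bp upstream of its CpG island-like start and 4 intronic, 1688 to 40628 bp into the gene. Il6st encodes gp130, the chain that passes the signal on for IL-6, IL-11 and their relatives. It had no window at its only GENCODE start (chromosome 13, 113265216). The RefSeq start of the gene, placed on mm9 by its sequence at position 113254278, lies 10938 bp upstream, and a window (113254024 to 113254523) was centred 4 bp from it. That window was 71.2% G and C with 58 CG dinucleotides, and among the 62 members whose RefSeq start could be placed, Il6st was the only one to gain an open start site. The bases around this start, chr13:113254128-113254297 (mm9, plus strand), are shown with the 20 bases from the start onward in capitals.
Il6st: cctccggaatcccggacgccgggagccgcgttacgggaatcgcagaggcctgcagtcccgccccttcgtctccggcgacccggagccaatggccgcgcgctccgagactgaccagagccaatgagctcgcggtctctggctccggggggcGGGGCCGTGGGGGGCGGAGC

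Il27ra, a receptor of IL-27, had 1 window 246 bp downstream of a start. The chains for IL-12 and IL-23 had no open start site. Il12rb2 had 3 intronic windows of 1 called peak, about 38 kb from a start site. Il23r had 1 intronic window and Il12rb1 had none. Il31ra had 2, in an intron and in the 3′ untranslated part.

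In the IL-1 receptor family, Il1r1, the signalling receptor of IL-1, had 2 windows, 408 bp upstream of its outermost start and 113 bp downstream of an internal start, 41619 bp from the outermost. Its partner chain Il1rap (chromosome 16, 26581790 to 26730203) had 2 at a CpG island-like start and 2 overlapping ones about 44 kb into the gene, whose shared stretch has 2 AP-1 matches. It is shown at chr16:26626239-26626370 (mm9, plus strand), with the matches in capitals, centred 2030 and 2095 bp downstream of an internal start site.
Il1rap: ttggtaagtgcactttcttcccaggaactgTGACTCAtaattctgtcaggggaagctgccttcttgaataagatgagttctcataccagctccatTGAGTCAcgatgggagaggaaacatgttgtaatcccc
Il18r1, the IL-18 receptor, and Il1rl1, that of IL-33, share 1 window. It is centred 26 bp upstream of a start site of Il18r1 and overlaps the end of Il1rl1, whose own starts were 24967 bp or more away. The window holds 2 STAT matches, shown with 10 bases on each side (chr1:40522502-40522530 and chr1:40522622-40522650, mm9, plus strand).
Il18r1, first match: aggctgcaggTTCCGGGAAgccaaaggcg
Il18r1, second match: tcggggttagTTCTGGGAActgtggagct
Il1rl2 and Il18rap had no window. Il1rapl1 and Il1rapl2, brain genes of over 1 Mb on the X chromosome, had 0 and 1.

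Of the receptors for IL-10 and its relatives, Il10rb, the shared chain, had a window 22 bp downstream of a start and 1 in an intron, and both also overlap the gene model of Ifnar2. Il28ra, the receptor of lambda interferons, had 1 at a CpG island-like start and 1 in an intron. Il20rb had 4 windows from 4 called peaks, centred 15693 to 24958 bp from the outermost start and each near an internal start site. None was within 1 kb of the start of a protein-coding transcript, so that with those transcripts alone the gene has no open start site. Il10ra, Il20ra and Il22ra1 had none, although Il22ra1 is known from epithelia. Of the common beta chain group, Il3ra had 2 windows at a CpG island-like start and Il5ra none.

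Of the 6 antagonists and decoys 1 had windows (16.7%, exact interval 0.4 to 64.1), an interval that contains the 58.3% of all genes. This was Il18bp, which captures IL-18, with 2 windows within 1 kb downstream of its start (chromosome 7, 109163593 to 109166669, minus strand). It held 2 STAT matches, 488 and 515 bp downstream of the start, which are shown on the minus strand (chr7:109166167-109166195 and chr7:109166140-109166168, mm9), again with 10 bases on each side.
Il18bp, first match: ggtgctcgatTTCCTAGAAgctgactgct
Il18bp, second match: ctgcctgcccTTCCCAGAAggaggctggc
The decoy receptors Il1r2, Il13ra2 and Il22ra2 and the antagonists Il1rn and Il1f5 had none, with a window 1241 bp upstream of Il1rn as the closest. Il4i1 had 2 windows, both also at the starts of Atf5 and Nup62.

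Many interleukin genes sit in clusters left by gene duplication. Of the 15 clusters of members within 250 kb of each other, 4 held no window at all between their outer ends. These were Il17a with Il17f (53.4 kb), Il1a with Il1b (71.5 kb), Il28a with Il28b (15.5 kb) and Il22ra2 with Il20ra (138.1 kb). At the 18.9 windows per Mb of the genome, few would be expected in spans this short. The cluster of Il1r2, Il1r1, Il1rl2, Il1rl1, Il18r1 and Il18rap spans 466.9 kb with 7 windows, of which 4 lay between Il1r2 and Il1r1 and belong to no gene of the family. That is 15.0 windows per Mb, against 18.9 over the genome. In the cluster of IL-1 ligands and antagonists (198.3 kb), 3 windows lay between genes and none in them, and in that of Il24, Il20, Il19 and Il10 (142.9 kb) both windows lay between Il24 and Il20. All 4 windows between Il2 and Il21 lay 81.0 to 84.2 kb from the left end of Il2. The only window between Il4, Il13 and Il5 was at the start of Rad50, while Irf1, beyond Il5, had 2 at its start. The densest was Il17re with Il17rc, 24.7 kb with 8 windows (324.5 per Mb), of which 2 lay at the start of the next gene, Creld1.

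**Figure D4:**
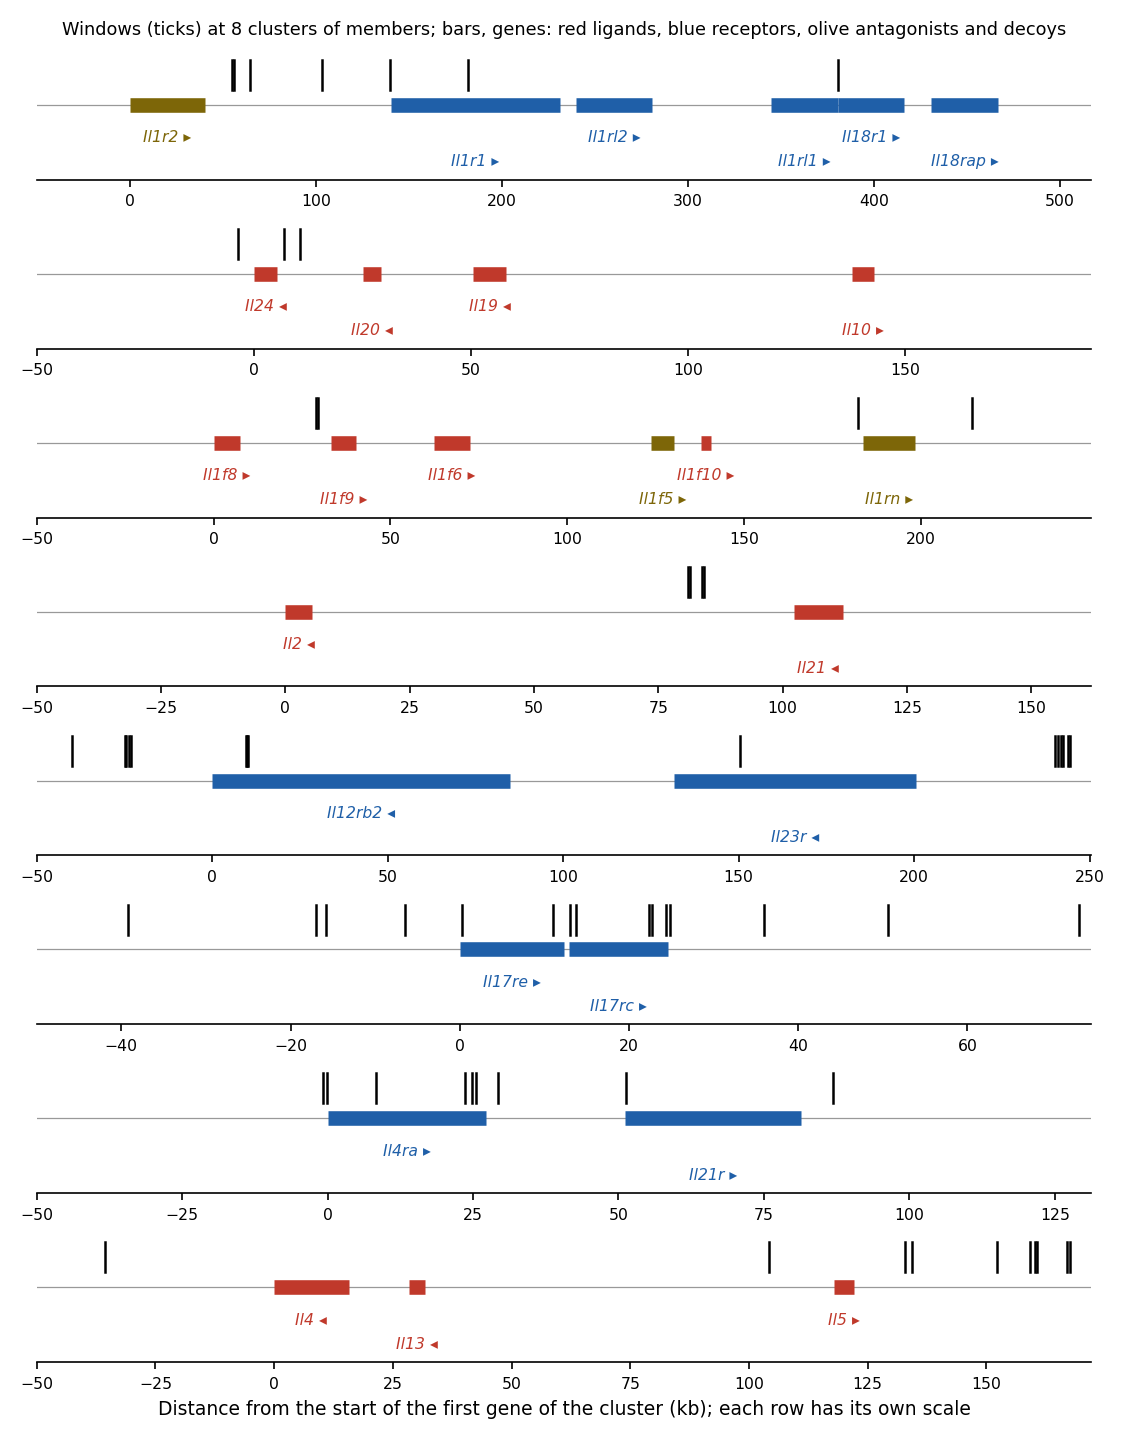
Windows (black ticks) and genes (red ligands, blue receptor chains, olive antagonists and decoys; arrows give the strand) at 8 of the 15 clusters, by distance in kb from the left end of the first gene, with 50 kb on each side; each row has its own scale. Windows sit in the Il17re and Il17rc pair and in Il4ra, and between the genes in the Il2, Il24 and Il1f8 rows.

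Partners of the interleukin genes that lack the name were counted as well. Among ligands that use the same receptors, Lif and Ctf1 had an open start site, and Osm, Tslp, Csf2 and Ebi3 had none. Of 12 partner receptor chains 9 did (75.0%, exact interval 42.8 to 94.5, against 52.4% of all genes), among them Osmr (the oncostatin M chain, 3 windows), Lifr (2), Ifngr1, Ifngr2 and Crlf2, whereas Csf2rb, the common beta chain, did not. Of 29 genes that relay interleukin signals inside the cell, 26 had one (89.7%, 72.6 to 97.8, against 52.4% of all genes). These include Jak1 (2 windows at the start), Stat3 (6), Stat6 (2), Socs2 (6) and Socs3 (2) of the pathway below the gamma chain and gp130, Myd88 (2) and Irak2 (3) below the IL-1 receptors, and Traf3ip2, the adaptor of the IL-17 receptors (4). Nlrp3, Stat4 and Tyk2 did not. Of the relay genes 19 of 29 had a CpG island-like start, and all 19 were open, against 85.2% of genes of this class, as were 7 of the other 10, against 30.3%. Of the partner receptor chains 8 had such a start and all 8 were open, as was 1 of the other 4.

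Sequence matches in the 102 windows were about as frequent as in the list as a whole. STAT matches were in 13 windows (12.7%, exact interval 7.0 to 20.8), against 13.6% of all 50000. AP-1 matches were in 11 (10.8%, 5.5 to 18.5), against 14.8%. GATA matches (AGATAA) were in 10 (9.8%, 4.8 to 17.3), against 13.6%, and RUNX matches (TGTGGTT) in 11 (10.8%, 5.5 to 18.5), against 9.44%. The NF-κB match was in 3 (2.9%, 0.6 to 8.4), against 2.41%, and its looser form, GGG and CC set 5 bases apart, in 69 (67.6%, 57.7 to 76.6), against 65.5%. The CTCF core (CC, any base, C, any base, AG, any 2 bases and GGC) was in 5 (4.9%, 1.6 to 11.1), against 4.82%. One side of the NFI site (TTGGC) was in 78 (76.5%, 67.0 to 84.3), against 72.9%. The full NFI site, which sets TTGGC and GCCAA 5 bases apart, was in 2 (2.0%, 0.2 to 6.9), against 0.114%, and these were overlapping windows at the start of Galt that fall in the gene model of Il11ra1. Matches were read on both strands, and overlapping windows can share one, so that the intervals are too narrow.

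The widest gap was for the HIF core among windows at start sites. The HIF core (ACGTG or GCGTG) was in 33 of 61 such windows of members (54.1%, 40.8 to 66.9), against 75.8% of 18812 in the list. The ETS match (CCGGAAG) was in 5 of 61 (8.2%, 2.7 to 18.1), against 17.2%, which its interval contains. Away from start sites the HIF core was in 22 of 41 (53.7%, 37.4 to 69.3), against 48.3%, and ETS in 3 of 41 (7.3%, 1.5 to 19.9), against 4.79%. Members also have fewer CpG island-like start sites than other genes, as given above, and the part of this in the gap was not tested.

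**Figure D5:**
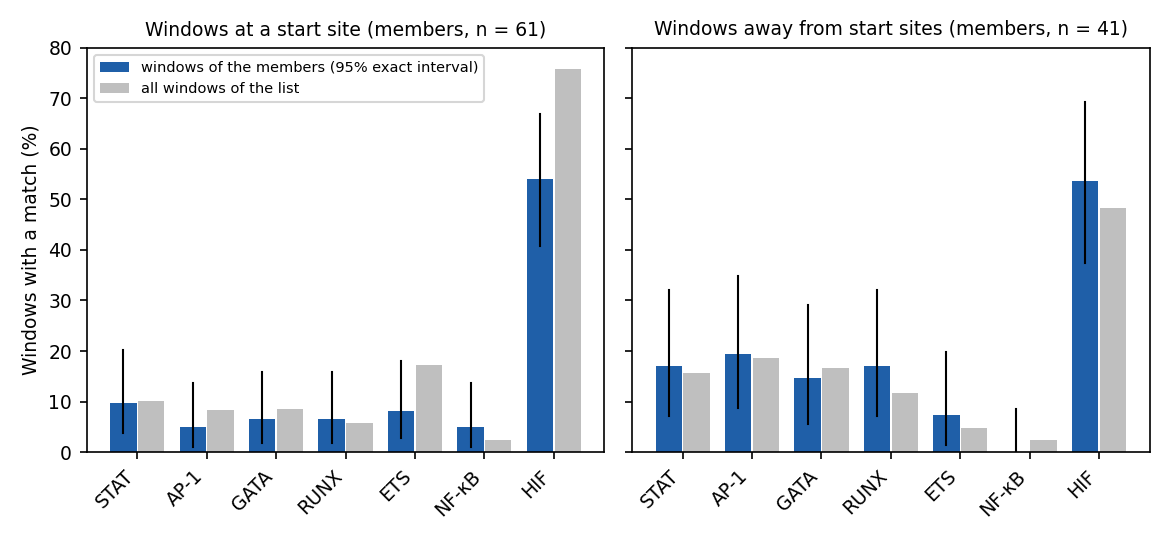
Share of windows with a match (y axis, percent) for 7 motifs, at a start site of any protein-coding gene (left) and away from one (right); blue bars are windows of the members with exact 95% intervals, grey bars all windows of the list in the same place. Among windows at start sites, HIF core matches were in 54.1% for the members and 75.8% for the list, and the interval of the members ends below the grey bar.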

How the data were processed

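Cells of an MMTV-PyMT tumour were stained, transposed in bulk and sorted into 960 wells on 10 plates per the labels. The authors mapped reads to mm9 (Bowtie2 2.1.0), kept unique reads, removed duplicates (Picard 1.79) and mitochondrial reads, and called summits with MACS2 on pooled cells at a q-value of 0.05. The MACS2 version is not given in the sources used here. The submitters' processing notes also list hg19. The 500 bp windows with the lowest q were deposited, without scores or counts, so depth and precision are unknown. Only reads that map once count, and a list cut at 50000 windows drops weaker sites.

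Windows were joined to GENCODE M1 (mm9) with Python 3.11.15 and SciPy 1.17.1. The centre of a window was taken as its summit, within 1 kb of any of 70018 transcript start sites. Windows with 1 base in a gene counted as in it. Intervals are Clopper-Pearson. Counting was tested on simulated windows. RefSeq promoter sequences (GRCm38.p6) were placed on mm9 by exact match (17044 of 18178 placed, 62 of 85 members), and printed bases are from mm9.

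Values are given in full for up to 10 ligands and 14 receptor chains with the most windows, for the other roles with a window, for each cluster, and for Il6, Il1b, Il2, Il4, Il10, Il17a, Il6ra, Il6st, Il4ra, Il1r1 and Il2rg. Other genes were named after their values were seen. Members, roles and lists were chosen with earlier results of these data known. The alternatives tried are other distances, overlaps, start sites, transcripts and windows, and the CpG class. A planned use of scores was not possible. Results that need certain genes are not reported here.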

Additional observations from a re-analysis of the deposited data

How the results depend on the processing

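With one choice changed at a time, the ligands with an open start site numbered 5 at 500 bp, 19 at 10 kb and 2 with only called peaks that kept 2 or more windows, against 8 as reported; background shares were 50.7%, 62.6% and 21.8%. Counted in the gene or at a start site, ligands numbered 19 at 10 kb and 3 with such called peaks, against 12. Within 10 kb of either end of the gene they numbered 20 (51.3%), where the background share was 67.4%. Receptor chains numbered 7 at a start site and 10 in the gene or at a start site with such called peaks, against 19 and 24. All members numbered 44 at 10 kb and 11 with such called peaks, against 29. Set against genes of the same CpG class, ligands were at -11.2 points rather than -31.9 and all members at -1.3 rather than -18.3. Receptor chains were at 10.0 rather than -3.7, a change of sign within the exact interval. The remaining alternatives left these counts within 1.5 times. Chosen after seeing the data, adding RefSeq start sites gave 20 receptor chains and 30 members, and counting decoy receptors with the receptors gave 19 of 42.

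No paired analysis was possible because the list pools all cells and gives no value per well. The list has no replicate to leave out, no score and no read depth.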
